A study of Mus musculus with 2 samples.

Results

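The cells described here were brain cells that carried transcripts of the cell cycle genes Mki67 and Top2a together with Dcx, the gene of the neuroblast microtubule protein doublecortin. They were picked from the brain library by their own unique molecular identifier (UMI) counts. A brain cell with more than 200 genes and under 40% mitochondrial UMIs was taken when it had 2 or more UMIs of Mki67 and Top2a together and 2 or more of Dcx. It also had at most 1 UMI of the oligodendrocyte progenitor genes Pdgfra and Cspg4 and fewer than 10 of the astroglial genes Slc1a2, Slc1a3 and Aldoc. This gave 416 of 4569 brain cells, or 9.10% (exact 95% interval 8.29 to 9.98%), out of 10621 barcodes in the brain and lung libraries together. They are called cycling Dcx cells.

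The study sorted GFP+ cells from the whole brain and from the lung of Nestin-GFP mice (Nes-GFP+ cells), adults of about 6 weeks. The transgene places GFP under regulatory elements of Nestin, a filament gene of neural stem cells (NSCs) that other cells, such as endothelial cells, also use, so the sort was not for neural cells alone. The labels give the strain as C57BL/6 and name no treatment. The study's methods give CD1 or mixtures of CD1 and C3H for wild-type mice, with which the transgenic mice were bred. Tissue was dissociated with trypsin and each tissue gave 1 droplet library read from the 3' end of the transcripts, which the study counts as a single biological replicate, with the number of animals in it not stated in the sources used here. With 1 library per tissue there was no replicate, so no test between groups was possible, and every interval below covers counting error only.

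In the adult brain, neurons are still born from NSCs of the ventricular wall and of the dentate gyrus. Quiescent NSCs become activated, give rise to transit amplifying cells that divide quickly, and these in turn make neuroblasts that express Dcx. Neuroblasts of the ventricular wall express Dlx genes, migrate to the olfactory bulb and mostly become GABA neurons there, and part of them still divide.

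Among the 4569 brain cells, 715 had 2 or more Mki67 and Top2a UMIs, and 472 of those had 2 or more Dcx UMIs. The oligodendrocyte progenitor limit took away 7 of the 472 and the astroglial limit 49, which left 416. Within the same limits, 151 cycling cells had 0 or 1 Dcx UMI (cycling cells with little Dcx, 3.30% of brain cells). A further 1327 cells had 2 or more Dcx UMIs and no Mki67 or Top2a UMI (non-cycling Dcx cells, 29.0%). Cycling Dcx cells therefore made up 73.4% of the cycling cells within the limits and 22.5% of the 1847 Dcx cells within them. The first share depended on depth, since with the selection made on cells thinned to 2000 UMIs it was 21.9%, or 114 of 520 cycling cells. Thinning lowered the counts behind every limit, the astroglial and oligodendrocyte progenitor limits included. Without the astroglial limit, and with no thinning, the first share was 67.4%. The remaining 104 Dcx cells had 1 Mki67 or Top2a UMI and entered no group.

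The genes that chose the cells are given as a description. Dcx (X:143855842-143933311 of build GRCm38, minus strand) had 2 to 22 UMIs in a cycling Dcx cell, with a median of 5. Mki67 (7:135689784-135716361) had a median of 9 and at most 57 UMIs, and Top2a (11:98992943-99024189) a median of 18.5 and at most 101. Both were found in 365 cells, Mki67 alone in 20 and Top2a alone in 31. Most of the cells lay far inside the cycling threshold, since 317 had 10 or more Mki67 and Top2a UMIs and 37 had exactly 2. The Dcx threshold cut through a denser range, since 63 cells had exactly 2 Dcx UMIs and 66 cycling cells just outside had exactly 1. Egfr was at 64.5 UMIs per 1000000 UMIs of the cells summed (CPM) in the former and at 133 in the latter. At the cycling threshold, Cdk1 was at 40.4 CPM in the 37 cells with 2 UMIs and at 15.03 CPM in the 104 Dcx cells with 1.

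**Figure D1:**
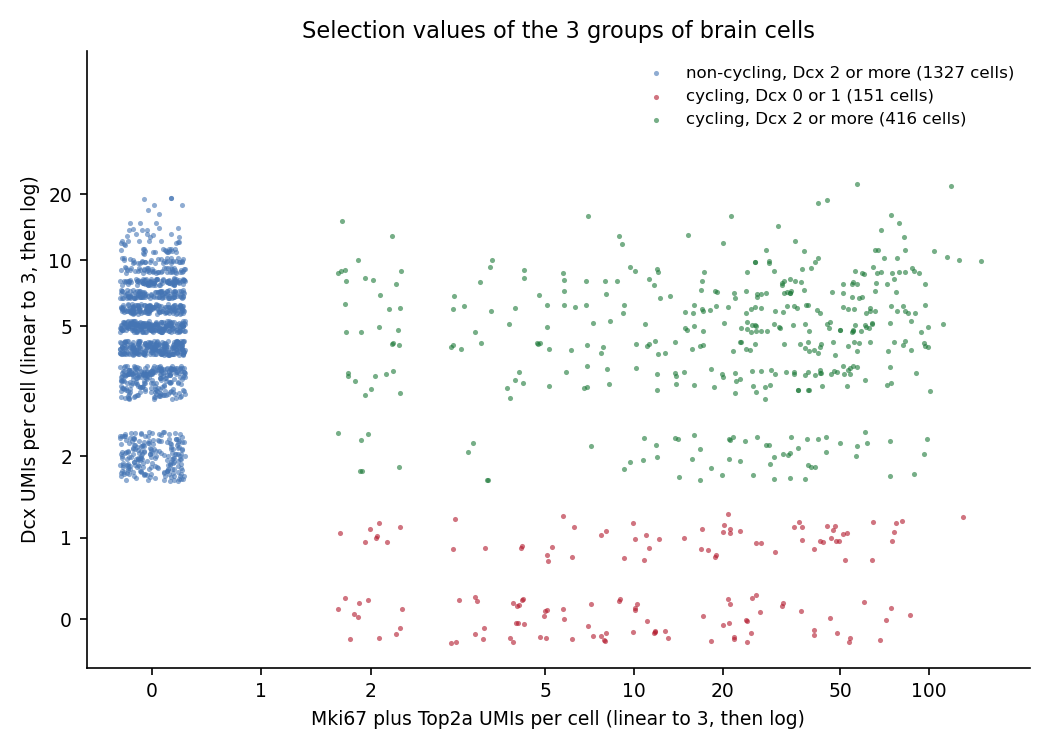
Mki67 plus Top2a UMIs (x axis) against Dcx UMIs (y axis) in each cell of the 3 groups, both axes linear up to 3 UMIs and logarithmic above, points spread slightly to part equal counts. Cycling Dcx cells reached 150 cycle gene UMIs and 22 Dcx UMIs, and the gaps between the groups are those of the selection.

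Cycling Dcx cells were deep for this library. They had a median of 9445 UMIs (1774 to 21778) and 3529 genes, against 8774 UMIs in cycling cells with little Dcx, 4263 in non-cycling Dcx cells and 4487 over all 4569 brain cells. The study's methods kept cells under 4000 genes, and 118 of the 416 (28.4%) had 4000 or more, against 35 of 151 (23.2%) and 6 of 1327 (0.452%). A rule that asks for 2 UMIs of each kind finds deeper cells more readily, so levels are compared as CPM and shares of cells after each cell was thinned to 2000 UMIs. Thinning left out 2 cycling Dcx cells, 20 cycling cells with little Dcx and 57 non-cycling Dcx cells. Scrublet called 1 of the 416 a doublet. The brain and lung libraries shared 15 barcodes, 1 of them that of a cycling Dcx cell.

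Neuroblast genes that the selection did not use were found in cycling Dcx cells well above background. Tubb3, a neuronal tubulin, had 0, 10 and 42 UMIs in the lowest, median and highest cell, and 84.3% of thinned cells had a UMI (80.4 to 87.7%). Cd24a, a surface protein of neuroblasts, was found in 66.4%, Stmn2, a tubulin-binding protein of growing neurites, in 68.1% and Sox11, a factor of young neurons, in 45.2%. In thinned cycling cells with little Dcx the shares of Tubb3, Cd24a, Stmn2 and Sox11 were 52.7%, 29.8%, 25.2% and 29.8%. In cells with 10 or more endothelial marker UMIs and no Mki67 or Top2a UMI, which should lack these genes, the shares were 6.02%, 6.43%, 13.3% and 2.01% (249 thinned cells, 59 left out, median 3852.5 UMIs before thinning). The label of neuroblast therefore rested on Dcx, which chose the cells, and on these markers, which cycling cells with little Dcx also carried in smaller shares. Nes itself was found in 13.8% of thinned cycling Dcx cells and in 44.7% before thinning, less often than in the endothelial-marked cells at 46.2% thinned.

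Cycling Dcx cells differed most from non-cycling Dcx cells in genes of DNA replication and mitosis. These follow Mki67 and Top2a, which chose the cells, so their size is a description. A gene is called higher when its CPM ratio was 2 or more with a 95% interval above 1, and lower when the ratio was 0.5 or less with an interval below 1, among genes with 50 or more UMIs over both groups. Of 10370 genes tested, 831 (8.01%) were called higher and 927 (8.94%) lower, with a median log2 ratio of -0.10. Of the G2/M phase list, 48 of 49 tested genes were higher and none lower, with a median log2 ratio of 5.88, and the list as a whole was 11.4-fold higher (11.1 to 11.6). Ctcf was the gene not called. Of the S phase list, 33 of 36 were higher and none lower, with a median of 2.48, and the list was 4.15-fold higher (4.05 to 4.24). Among those not called were Cdca7 and Casp8ap2, at ratios of 1.47 and 1.78.

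Spindle and kinetochore genes were among those with the largest ratios. Hmmr, a spindle protein, was at 452 CPM in cycling Dcx cells and at 1.17 CPM in non-cycling Dcx cells, a ratio of 385 (186 to 958). Cdk1, the kinase that drives entry into mitosis, had 0, 4 and 27 UMIs in the lowest, median and highest cycling Dcx cell and at most 2 UMIs in any non-cycling Dcx cell. Its levels were 520.0 and 2.18 CPM, a ratio of 238 (139 to 448). The mitotic kinase Plk1, the kinetochore genes Ndc80 and Spc25, and the kinesins Kif4 and Kif2c had ratios of 264, 238, 198, 340.4 and 363. The histone gene Hist1h2af and the kinesin gene Kif18b had 433 and 253 UMIs in cycling Dcx cells and none in non-cycling Dcx cells. Against a floor of 3 UMIs over that group, Hist1h2af was at least 209-fold higher, and for Kif18b the bound was 122-fold. Among S phase genes, the ribonucleotide reductase subunit Rrm2 was 30.1-fold higher (24.7 to 36.9), the thymidylate synthase gene Tyms 9.06-fold and the replicative helicase genes Mcm5 and Mcm6 8.56-fold and 4.03-fold. With the selection made on cells thinned to 2000 UMIs, smaller counts gave ratios of 139 for Cdk1 (68.3 to 327), 69.3 for Plk1 (24.7 to 269), 104 for Spc25, 122 for Kif4, 106 for Kif2c, 46.3 for Rrm2, 5.26 for Tyms and 5.43 for Mcm5.

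Since the members of these lists move together with the cell cycle, their promoters were read from RefSeq (build GRCm38.p6, 250 bases before to 50 after the gene start). Windows were found for 44 of the 50 G2/M genes, 28 of the 40 S phase genes and 27025 genes in all. The motifs searched on both strands, with overlaps allowed, were the cell cycle homology region (CHR, TTTGAA or TTTAAA), the CCAAT box (CCAAT) and an E2F site (GCGGGAAA, GCGCGAAA or GCGCCAAA). CHR letters were in 77.3% of G2/M windows, 25% of S phase windows and 27.8% of all windows. CCAAT letters were in 75%, 71.4% and 37.9%, and both motifs in 61.4%, 21.4% and 10.9%. E2F letters were in 2.27%, 42.9% and 1.91%. The G2/M windows thus held CHR letters more often and the S phase windows E2F letters more often than windows at large. The early neuroblast list, with windows for 10 of 18 genes, held CHR letters in 50%, CCAAT letters in 70%, both in 50% and E2F letters in 0 of 10. These are matches of letters, not measured binding.

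The 250 bases upstream of Cdk1 (chr10:69352913-69353162, minus strand) and Hmmr (chr11:40733438-40733687, minus strand) are shown because these genes stood among the largest ratios, and those of Mcm6 (chr1:128359706-128359955, minus strand) because it held 3 E2F matches, the most of the S phase list. Capitals mark CHR and CCAAT letters in Cdk1, CCAAT letters in Hmmr and E2F letters in Mcm6, on either strand.
Cdk1: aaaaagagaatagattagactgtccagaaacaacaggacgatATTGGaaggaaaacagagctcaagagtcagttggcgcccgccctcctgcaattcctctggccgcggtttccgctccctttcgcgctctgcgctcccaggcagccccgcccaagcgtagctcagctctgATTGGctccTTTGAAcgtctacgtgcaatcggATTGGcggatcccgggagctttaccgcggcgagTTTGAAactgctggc
Hmmr: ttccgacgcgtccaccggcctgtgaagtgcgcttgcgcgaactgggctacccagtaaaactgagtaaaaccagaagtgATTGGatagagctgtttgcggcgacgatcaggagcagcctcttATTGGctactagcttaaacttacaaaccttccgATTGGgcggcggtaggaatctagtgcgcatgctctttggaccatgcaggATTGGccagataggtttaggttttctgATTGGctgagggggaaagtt
Mcm6: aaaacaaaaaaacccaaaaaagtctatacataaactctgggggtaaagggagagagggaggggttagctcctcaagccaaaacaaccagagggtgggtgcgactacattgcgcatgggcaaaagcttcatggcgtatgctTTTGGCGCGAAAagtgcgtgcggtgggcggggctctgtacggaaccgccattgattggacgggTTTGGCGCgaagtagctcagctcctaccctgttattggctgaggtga
Cdk1 held 2 CHR and 3 CCAAT matches, and also the 1 E2F match of the G2/M list, left in lower case. Hmmr held 5 CCAAT matches and 1 CHR match in the transcribed bases not printed, and 2 of the 3 E2F matches of Mcm6 overlapped. Against non-cycling Dcx cells, the ratios of these genes were 238, 385 and 4.03.

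The share of each cell's UMIs that fell on the S phase and G2/M lists is given as a description. The S phase list took 0.0474%, 0.625% and 1.54% in the lowest, median and highest cell, and the G2/M list 0.0558%, 1.65% and 4.5%. They were set against the usual level of non-cycling Dcx cells, a comparison chosen after the values were seen. Both groups were chosen by Mki67 and Top2a, which the lists follow, so a separation was built into the selection. The highest value that 90% of non-cycling Dcx cells stayed within was 0.268% for the S phase list and 0.261% for the G2/M list. Above both lay 326 of the 416 cells (78.4%), above the G2/M value alone 72 (17.3%), above the S phase value alone 5 and below both 13. Those 13 cells (3.13%) had a median of 2 Mki67 and Top2a UMIs, the least the selection allowed. Conversely, 44 of the 1327 non-cycling Dcx cells (3.32%) lay above both values although they had no Mki67 or Top2a UMI, and 222 (16.7%) above at least one, against 403 (96.9%) of cycling Dcx cells. Cutting a continuous share this way gives ranges, not cell types or cycle phases.

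**Figure D2:**
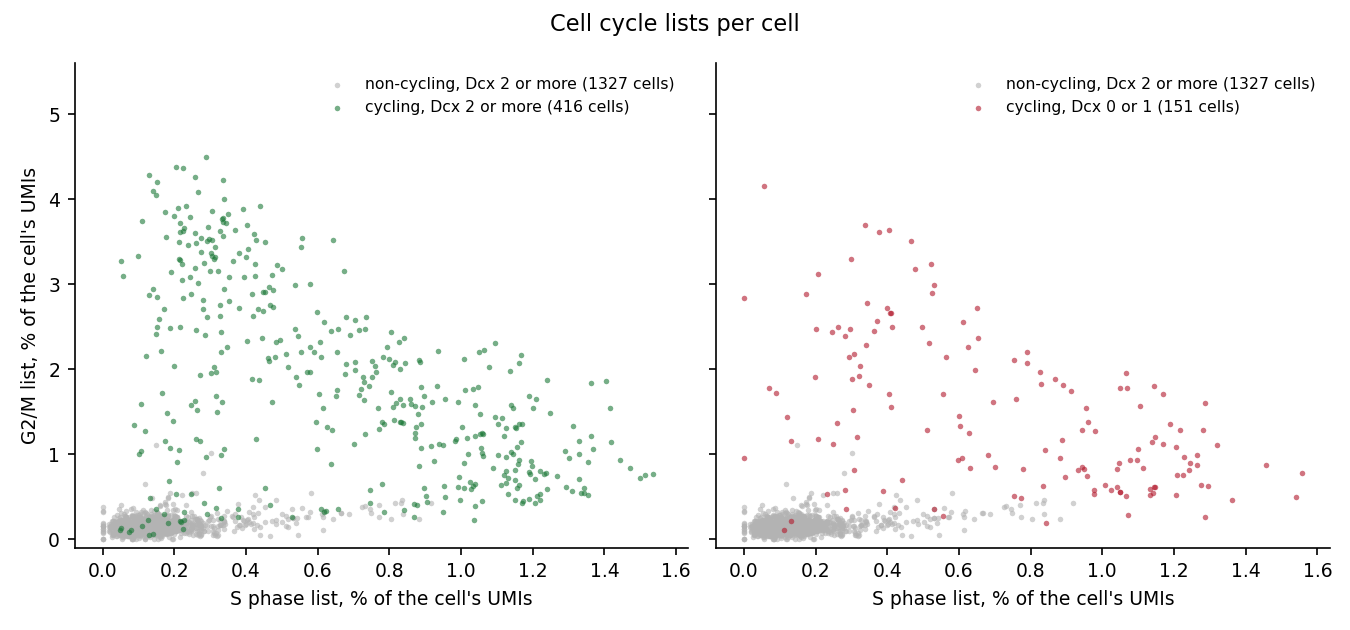
Share of each cell's UMIs on the S phase list (x axis, %) and on the G2/M list (y axis, %), with cycling Dcx cells on the left, cycling cells with little Dcx on the right and non-cycling Dcx cells in grey in both. Cycling Dcx cells reach 1.54% on the S phase axis and 4.5% on the G2/M axis, and most non-cycling Dcx cells sit below 0.3% on both axes.

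Against the other cycling cells, cycling Dcx cells held slightly fewer S phase and more G2/M transcripts. The S phase list had a ratio of 0.840 (0.821 to 0.859) and the G2/M list one of 1.31 (1.29 to 1.33), and no gene of either list was called in any direction. Of 8752 genes tested in that comparison, 280 (3.2%) were higher and 213 (2.43%) lower in cycling Dcx cells, with a median log2 ratio of -0.02. The median log2 ratios of the lists were -0.27 and 0.42. Hmmr at 452 against 289 CPM and Cdk1 at 520.0 against 378 CPM showed the size of the shift, which stayed below 2-fold. This comparison depended on depth through the selection itself. Made on cells thinned to 2000 UMIs, the selection gave 114 cycling Dcx cells and 406 with little Dcx. Of 81 genes of the lists or of the naming rule that were called against cycling cells with little Dcx, 64 then lost the call, 36 of them with fewer than 50 UMIs left, and 4 turned direction, each with an interval that held 1. Against non-cycling Dcx cells 80 of 187 lost it, 68 were left with fewer than 50 UMIs and 3 turned, all but Mag with an interval that held 1. Among cells of 4000 to 12000 UMIs the call was lost by 12 of 81 and 27 of 187, with 11 and 4 under 50 UMIs. Among cells with fewer than 4000 genes, the study's own limit, it was lost by 22 of 81 and 16 of 187, with 16 and 1 under 50 UMIs. Ratios of named genes that moved past the threshold or by more than 1.5 times are given with the groups below, and a loss through fewer than 50 UMIs alone is given for few of them.

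Among cyclins, cyclin-dependent kinases and their inhibitors, Ccnd1 and Cdk6 differed between the cycling groups. Ccnd2 was high everywhere, at 4115 CPM in cycling Dcx cells, 3782 in cycling cells with little Dcx and 3111 in non-cycling Dcx cells, and was called in no comparison. Ccnd1, the other main G1 cyclin, was at 7.55, 70.0 and 10.9 CPM, so cycling Dcx cells had 0.108 times the level of the other cycling cells (0.0692 to 0.164). Selected on thinned cells, the groups gave a ratio of 0.132 (0.00322 to 0.80), from 1 against 27 UMIs, fewer than a call needs. Ccnd1 was present in endothelial-marked cells too, 8.84% of them after thinning against 9.92% of cycling cells with little Dcx and 2.42% of cycling Dcx cells. Its G1 partner Cdk6 was at 85.2, 242 and 25.5 CPM, lower than in the other cycling cells (ratio 0.352, 0.301 to 0.411) and higher than in non-cycling Dcx cells (3.34, 2.75 to 4.07, or 1.98 among cells of 4000 to 12000 UMIs). Ccnd1 and Cdk6 were the 2 of 23 tested members called against cycling cells with little Dcx, and the list ratio was 1.06 (1.03 to 1.08), which crossed 1 to 0.993 when the selection was made on thinned cells.

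Against non-cycling Dcx cells, 15 of 24 members of this list were higher and 1 lower. Among the inhibitors named here, 3 were called and 2 were not. Cdkn2c and Cdkn2d, which inhibit Cdk4 and Cdk6, were 5.16-fold (4.37 to 6.13) and 5.21-fold higher (4.58 to 5.95) in cycling Dcx cells, and the p21 gene Cdkn1a was 5.25-fold higher (3.78 to 7.41, or 3.06, 0.979 to 8.22, with the selection on thinned cells). The p27 gene Cdkn1b was at 479 against 402 CPM and the p57 gene Cdkn1c at 52.8 against 43.6 CPM, neither called. Btg1, an antiproliferative gene, was the one lower, at 361 against 945 CPM (ratio 0.382, 0.360 to 0.404).

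Genes of activated NSCs and transit amplifying cells were lower in cycling Dcx cells than in the other cycling cells. Of the list, 11 of 18 tested genes were lower and none higher, with a median log2 ratio of -1.50 and a list ratio of 0.594 (0.574 to 0.614). The growth factor receptor Egfr (11:16752203-16918158) was at 52.8 CPM in cycling Dcx cells, 197 in cycling cells with little Dcx (ratio 0.268, 0.222 to 0.322, or 0.587, 0.316 to 1.02, with the selection on thinned cells, which ends the call) and 14.9 in non-cycling Dcx cells (3.54, 2.75 to 4.58). The last ratio with the selection on thinned cells was 5.09 (2.48 to 10.1), from fewer than 50 UMIs and so without a call. A UMI of it was found in 10.4%, 22.9% and 2.13% of thinned cells, against 0.402% of endothelial-marked cells. Fabp7, a fatty acid binding protein of radial glia and progenitors, followed the same order at 133, 412 and 42.8 CPM. For both, cycling Dcx cells were called lower than the first group and higher than the second. Sox2, a factor of neural progenitors, did not separate the groups, at 475, 435 and 399 CPM and with neither ratio called. Vim was at 640.3 CPM in cycling Dcx cells, against 348 and 410.2, and was called in neither comparison. Nes was at 77.7 CPM against 77.1 in the other cycling cells and 37.4 in non-cycling Dcx cells (ratio 2.08, 1.74 to 2.47). The Nes call was lost at 1.67 among cells of 4000 to 12000 UMIs, at 1.73 under 4000 genes and at 1.81 with the selection on thinned cells. The Notch list was also lower than in cycling cells with little Dcx, with a ratio of 0.420 (0.389 to 0.453) and 5 of 12 tested genes lower. The ligands Dll1, Dll3 and Jag1 had ratios of 0.205, 0.354 and 0.313, and the effector Hes5 and its relative Hes6 of 0.168 and 0.304. Notch1 itself was at 30.2 against 40.9 CPM, not called. With the selection on thinned cells Dll3 was at 0.475 (0.122 to 1.35) and Jag1 at 1.13 (0.409 to 2.75), while Dll1 and Hes5 had no UMI in cycling Dcx cells against 16 and 38, and none of these 4 had enough UMIs for a call.

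Among the genes with the lowest ratios were Tnfrsf19, a receptor of the tumour necrosis factor family, at 2.68 against 40.9 CPM, and Mfge8, a secreted phagocytosis protein, at 37.0 against 225 CPM. The Tnfrsf19 ratio with the selection on thinned cells was 0.115 (0.00282 to 0.689), from 1 against 31 UMIs, fewer than a call needs. Of 13 tested quiescence and astroglial genes, 7 were lower than in cycling cells with little Dcx and none higher, among them the metallothionein gene Mt3 (0.267, or 0.455 without cells with other-type markers) and the neurotensin receptor gene Ntsr2 (0.119). All groups had fewer than 10 UMIs of 3 astroglial genes by selection. Some of the lowest ratios rested on 1 cell. In cycling cells with little Dcx, 1 cell held 81 of 126 UMIs of Cldn5, 57 of 93 of Itm2a, 26 of 38 of Ly6a and 41 of 54 of Chchd10. Without cells with other-type markers the ratios of Cldn5, Itm2a and Ly6a were 0.360, 0.650 and 0.375, none called.

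**Figure D3:**
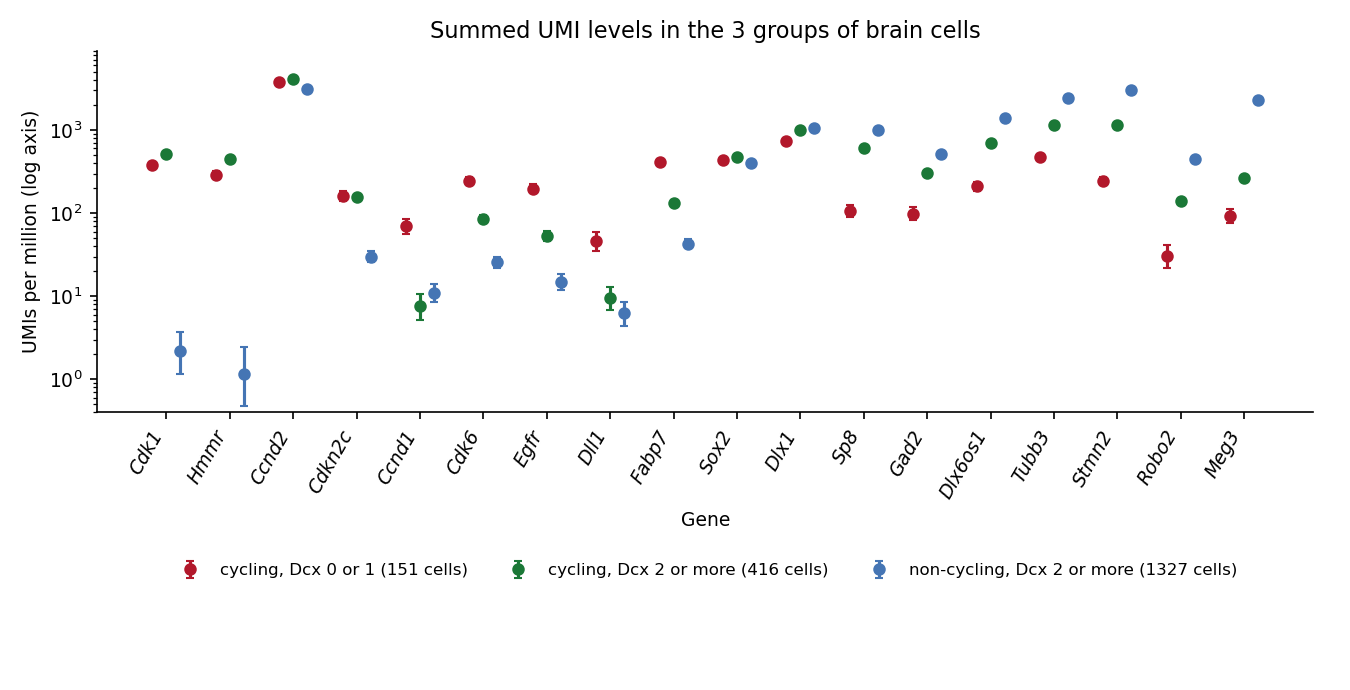
Level of 18 genes (y axis, CPM, log axis) in cycling cells with little Dcx (red), cycling Dcx cells (green) and non-cycling Dcx cells (blue), with exact Poisson 95% intervals. For Egfr, Fabp7 and Cdk6 the level falls from red to green to blue, for Sp8, Gad2, Dlx6os1, Tubb3, Stmn2, Robo2 and Meg3 it rises, and Ccnd2 and Sox2 stay within 2-fold.

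The summed early neuroblast and the Dlx and GABA lists lay above the other cycling cells and below non-cycling Dcx cells, while many of their genes were not called. Of 18 early neuroblast genes, 9 were higher than in cycling cells with little Dcx and none lower (list ratio 1.62, 1.6 to 1.65, median log2 ratio 0.91). Against non-cycling Dcx cells 1 was higher and 4 lower (0.678, 0.673 to 0.683, median -0.49). Stmn2 had 0, 9 and 71 UMIs in the lowest, median and highest cycling Dcx cell, against 0, 0 and 25 in cycling cells with little Dcx. It was 4.79-fold higher than there (4.27 to 5.39) and had 0.383 times the level of non-cycling Dcx cells (0.371 to 0.395). Tubb3 had ratios of 2.46 (2.26 to 2.68) and 0.472 (0.457 to 0.488). With the selection on thinned cells, the ratio over cycling cells with little Dcx was 2.01 for Stmn2 (1.76 to 2.29), 1.69 for Tubb3 (1.48 to 1.94) and 1.67 for Cd24a (1.37 to 2.03), the last 2 no longer called. Tubb3 against non-cycling Dcx cells was then at 0.531, not called, nor was it at 0.555 under 4000 genes or at 0.527 among cells of 4000 to 12000 UMIs. The exception in this list was Hmgn2, a nucleosome binding protein, which was 2.66-fold higher than in non-cycling Dcx cells (2.52 to 2.82).

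The Dlx and GABA list gave 9 of 17 genes higher than in cycling cells with little Dcx and none lower (list ratio 1.87, 1.81 to 1.93, median 1.24). The members did not rank alike. Dlx1 and Dlx2, the first Dlx factors of the lineage, had ratios of 1.33 and 1.12, not called. Dlx5 and Dlx6, which follow them, had ratios of 2.64 (2.21 to 3.17) and 2.5 (2.05 to 3.07), and Sp8, a factor of olfactory bulb interneuron precursors, one of 5.64 (4.75 to 6.76). The GABA synthesis genes Gad1 and Gad2 had ratios of 3.79 (2.65 to 5.58) and 3.07 (2.55 to 3.71). The non-coding gene Dlx6os1 had a ratio of 3.36 (2.96 to 3.82). It lies antisense to Dlx6, and whether the counting used strand is not given in the sources used here, so reads of the 2 genes may be mixed. With the selection on thinned cells, Dlx6os1 was at 1.65 (1.37 to 1.99), Dlx5 at 1.76, Dlx6 at 1.41 and Gad2 at 1.7, all no longer called. Sp8 was then at 2.18 (1.82 to 2.62) and Gad1 at 2.3 (1.44 to 3.64), still called.

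Against non-cycling Dcx cells, Dlx1, Dlx2 and Dlx5 were within 2-fold, at ratios of 0.937, 1.11 and 1.06. Of the 17 genes 5 were lower, among them Gad1 (0.435), Meis2 (0.430), Tshz1 (0.438) and Pbx3 (0.185). Among cells of 4000 to 12000 UMIs, Gad1, Meis2 and Tshz1 were at 0.571, 0.551 and 0.528, not called, and Pbx3 at 0.349. Gsx2, a factor of progenitors, was the 1 higher (5.51, 3.77 to 8.25). Calb2, the calretinin gene of one class of bulb interneurons, had 81 UMIs in 31 cycling Dcx cells and none in cycling cells with little Dcx, at least 8.36-fold higher against a floor of 3 UMIs over that group. The ratio with the selection on thinned cells was 0.548 (0.060 to 2.42), from 2 against 13 UMIs, an interval that held 1, so no direction was resolved there.

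Part of the late neuroblast and neuronal genes were lower in cycling Dcx cells than in non-cycling Dcx cells, and 13 of 19 were not called. The list had a ratio of 0.490 (0.483 to 0.498) with 5 of 19 genes lower and 1 higher, and one of 1.80 (1.74 to 1.86) over cycling cells with little Dcx, with 8 of 18 higher and 2 lower. Meg3, a maternally expressed non-coding RNA (12:109541001-109571726), had a median of 0 and a maximum of 47 UMIs in cycling Dcx cells, and a median of 8 and a maximum of 62 in non-cycling Dcx cells. Its level was 267 against 2280.4 CPM, which is 8.54-fold lower, and it was found in 23.9% against 70.4% of thinned cells. Rian, from the same imprinted locus, was at 29.5 against 195 CPM. The synaptic genes Syt1 and Grin2b and the axon initial segment gene Ank3 were lower too, at ratios of 0.210, 0.431 and 0.176, while Syt4, a synaptotagmin, was 2.45-fold higher (1.92 to 3.13). The 2 genes lower than in cycling cells with little Dcx were Miat, a non-coding RNA (0.344), and Rbfox3, the gene of the neuronal marker NeuN (0.302). With the selection on thinned cells neither was called, Miat at 0.712 (0.322 to 1.42) and Rbfox3 with 0 against 14 UMIs. Among cells of 4000 to 12000 UMIs, the ratios to non-cycling Dcx cells were 0.204 for Meg3, 0.294 for Rian, 0.336 for Syt1 and 1.72 for Syt4, the last not called. Grin2b was not called with the selection on thinned cells (0.539).

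Of the migration list, 9 of 19 were higher than in cycling cells with little Dcx and none lower (list ratio 1.70, 1.62 to 1.79), and 9 of 22 were lower than in non-cycling Dcx cells and 1 higher (0.640, 0.625 to 0.656). Robo2, a Slit receptor, was at 141 CPM, against 30.7 and 448. Erbb4, a neuregulin receptor, was at 35.1 CPM, against 7.08 and 101. Prokr2, the prokineticin receptor that guides neuroblasts to the bulb, had 13 UMIs in all cycling Dcx cells (3.16 CPM), none in cycling cells with little Dcx and 57.4 CPM in non-cycling Dcx cells. The gene higher than in non-cycling Dcx cells was Cxcr4, a chemokine receptor (29.7 against 12.8 CPM, ratio 2.33, 1.73 to 3.14). With the selection on thinned cells Cxcr4 was at 1.3 (0.330 to 3.78), not called, and over cycling cells with little Dcx Robo2 was at 2.36, still called, and Erbb4 at 2.72 with 13 against 17 UMIs, too few for a call. Among cells of 4000 to 12000 UMIs Erbb4 was at 0.506 of non-cycling Dcx cells, not called, and Prokr2 at 0.098.

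Of 19 microtubule genes, 2 were called higher than in non-cycling Dcx cells, 6 lower and 11 in neither direction (list ratio 0.714), and the genes named here were picked after their values were seen. The neuronal tubulins Tubb2a, Tubb2b and Tubb3 had ratios of 0.406, 0.403 and 0.472 to non-cycling Dcx cells, while Tuba1b and Tubb4b were 4.54-fold (4.26 to 4.83) and 6.29-fold higher (5.71 to 6.95). Each of these 3 lower calls was lost under a depth alternative, Tubb2a at 0.511 and Tubb3 at 0.527 among cells of 4000 to 12000 UMIs and Tubb2b at 0.532 with the selection on thinned cells. Tubb4b is also a member of the G2/M list. Tubb2b, Tubb3, Stmn1, Stmn2 and Map1b are also in the early neuroblast list, and Map2, Mapt and Stmn3 in the late one. These lists therefore share UMIs. Over the 19 genes, 7 were higher and none lower than in cycling cells with little Dcx (list ratio 1.6). Tuba1b was level between both cycling groups, at 1008 and 1011 CPM.

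Chromatin genes differed mainly from non-cycling Dcx cells. The list had a ratio of 2.67 (2.63 to 2.71) with 9 of 23 genes higher and 1 lower. The chromatin protein Hmgb2, a member of the G2/M list as well, was 20.3-fold higher (18.7 to 22.2), the histone variant H2afx 17.8-fold (16.0 to 19.9), the maintenance DNA methyltransferase Dnmt1 3.53-fold (3.18 to 3.92) and the Polycomb methyltransferase Ezh2 2.7-fold (2.52 to 2.89). Against cycling cells with little Dcx the same list had a ratio of 1.09 (1.07 to 1.11) with 1 of 21 genes higher and none lower. That gene was Actl6b, the neuronal subunit of the BAF remodelling complex, at 37.0 against 14.2 CPM (2.61, 1.6 to 4.53, or 1.24, 0.479 to 2.87, with the selection on thinned cells). It was also the 1 gene lower than in non-cycling Dcx cells, which had 96.8 CPM (0.382, 0.317 to 0.458).

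**Figure D4:**
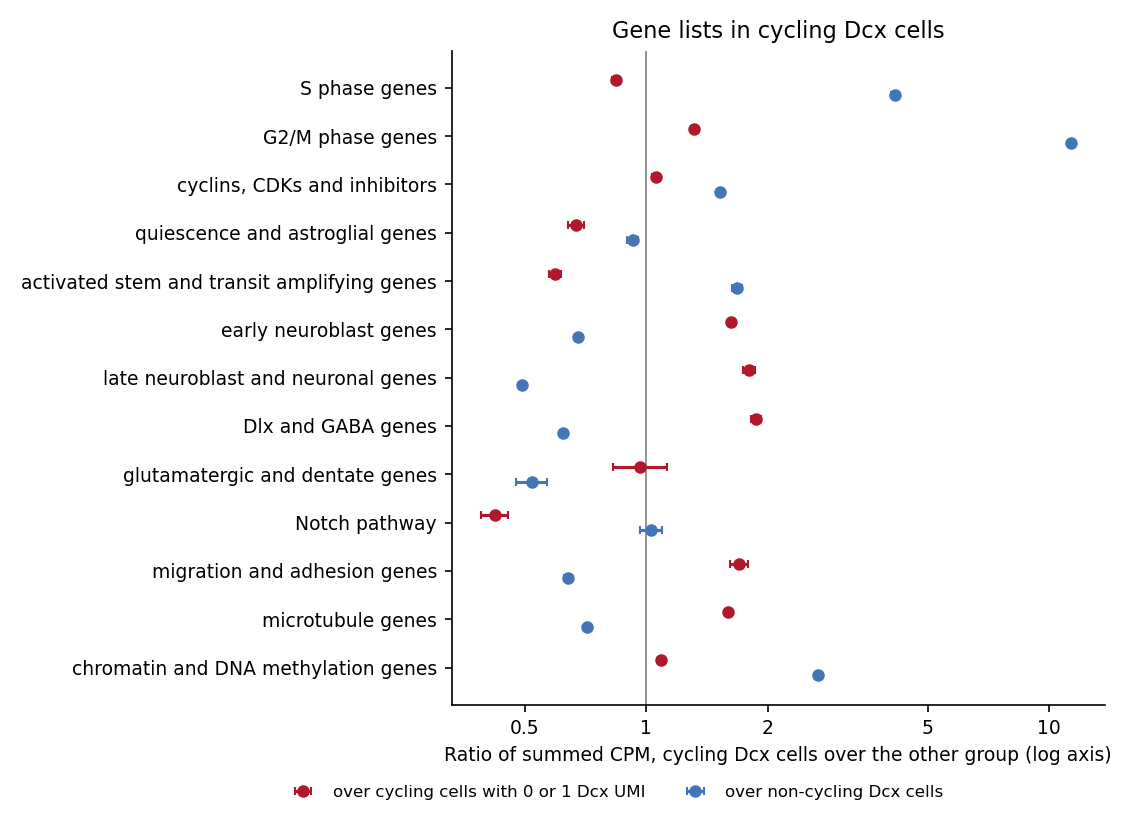
Ratio of summed CPM of each gene list in cycling Dcx cells (x axis, log axis) over cycling cells with little Dcx (red) and over non-cycling Dcx cells (blue), with exact 95% intervals of counting error. The neuroblast, neuronal, Dlx, migration and microtubule lists lie above 1 in red and below 1 in blue, and the activated stem list the other way round. Several of these lists share genes.

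The cycling Dcx cells also differed among themselves along Dcx, a gene of the selection, so the trends below are a description. They were put in order of Dcx UMIs per 10000 UMIs and parted into tertiles of 139, 139 and 138 cells, a split chosen after the values were seen, with medians of 2.74, 5.32 and 9.32. Hes6 was at 182 CPM in the lowest tertile, 104 in the middle and 75.6 in the highest, so the highest had 0.416 times the lowest (0.324 to 0.530). Fabp7 went the same way, at a ratio of 0.523 (0.417 to 0.654). Stmn2 was at 693, 1210 and 1741 CPM (2.51, 2.33 to 2.71) and Meg3 at 133, 266 and 452 CPM (3.39, 2.89 to 4.0). Robo2, Gad1 and Dlx6os1 had ratios of 2.47, 2.19 and 1.88. Mki67, which took part in the selection, was at 1112, 1082 and 1175 CPM and Cdk1 at 531, 522 and 503 CPM. Top2a, the other cycle gene of the selection, was at 2480.0, 2343.9 and 1920.5 CPM (0.774, 0.735 to 0.816). The G2/M list had a ratio of 0.967 and the S phase list of 0.777 (0.754 to 0.80). The lists moved less than Hes6, Fabp7, Stmn2, Meg3, Robo2, Gad1 and Dlx6os1. The early neuroblast list had a ratio of 1.41, the late neuroblast list 1.48, the Dlx and GABA list 1.46, the activated stem list 0.901 (0.857 to 0.947) and the quiescence list 0.971 (0.910 to 1.04). Not all stem or neuronal genes took part, with Sox2 at 1.04, Nes at 0.959, Elavl4 at 1.09, Syt4 at 0.796 and Miat at 0.864, each with an interval that held 1. The Cdk1 ratio was 0.948 (0.852 to 1.05).

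Depth moved along this order, with median UMI counts of 11239, 9233 and 7871. Since the selection asked for 2 or more Dcx UMIs, the lowest Dcx shares could be reached only by deep cells. Among members with 8000 to 12000 UMIs (59, 58 and 58 cells) the ratio of the highest to the lowest tertile was 0.597 for Hes6, 0.578 for Fabp7, 1.84 for Stmn2 (1.64 to 2.05), 3.55 for Meg3 (2.72 to 4.69) and 1.21 for Cdk1 (1.03 to 1.42). The directions for Hes6, Fabp7, Stmn2 and Meg3 were those of all members, and that of Cdk1 turned. Miat, whose interval over all members held 1, was at 0.565 there (0.320 to 0.970).

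**Figure D5:**
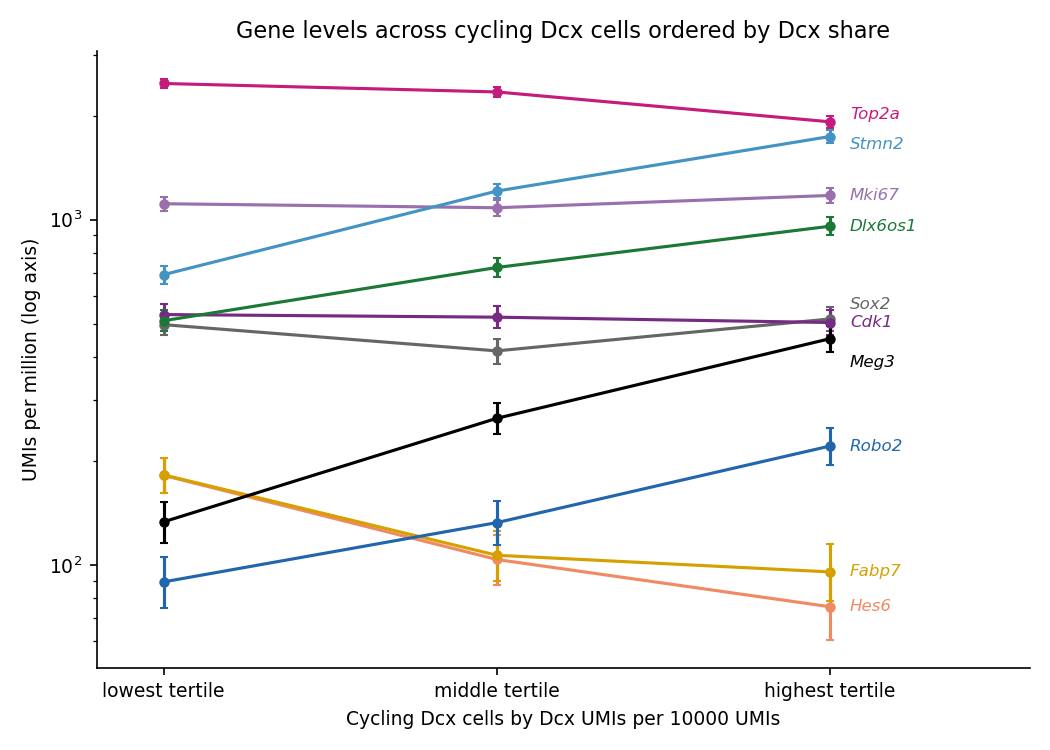
Level of 10 genes (y axis, CPM, log axis) in the tertiles of cycling Dcx cells by Dcx share (x axis), with exact Poisson 95% intervals. Hes6 falls from 182 to 75.6 and Meg3 rises from 133 to 452, while Mki67 stays between 1082 and 1175 and Top2a goes from 2480.0 to 1920.5.

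Most cycling Dcx cells carried Dlx transcripts, and a small number did not. Over Dlx1, Dlx2, Dlx5, Dlx6 and Dlx6os1 together, 388 of 416 had 10 or more UMIs and 6 had none. Eomes, the factor of glutamatergic progenitors such as those of the dentate gyrus, had 2 or more UMIs in 10 cells (2.40%, 1.16 to 4.38%), which was a subset looked at after its values were seen. These 10 had a median of 1 Dlx UMI (0 to 35), against 27 in the 400 cells without Eomes, and 31 UMIs of the proneural gene Neurog2, of which those 400 had none. The 6 cells without Dlx UMIs held 36 Eomes and 23 Neurog2 UMIs and no Gad1 UMI. In cycling cells with little Dcx, 5 cells had 2 or more Eomes UMIs, with no Dlx UMI, and in non-cycling Dcx cells 33 had.

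The glutamatergic list was low over all cycling Dcx cells. It was at 168 CPM, against 175 in cycling cells with little Dcx (ratio 0.963, 0.827 to 1.13, or 1.41 without cells of 2 or more Eomes UMIs) and 324 in non-cycling Dcx cells (0.520, 0.476 to 0.567), where 5 of 9 tested genes were lower. Neurod1, a factor of young glutamatergic neurons, was at 3.65 CPM against 43.1 in the latter (0.0847, 0.0467 to 0.142). Most of the list's UMIs came from Prox1, a factor of granule neurons that is not limited to them, with 505 of 691, and 488 of those lay in cells without Eomes.

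Markers of endothelial, mural, fibroblast, microglia and ependymal cells were scarce in cycling Dcx cells. Over the 5 endothelial genes they had 123 UMIs (29.9 CPM), of which 1 cell held 96, against 149 CPM in cycling cells with little Dcx, where 1 cell held 110 of 190, and 103 CPM in non-cycling Dcx cells. The ratio to cycling cells with little Dcx was 0.200 and ranged from 0.0276 to 0.489 over the alternatives. Mural, fibroblast, microglia and ependymal lists had 34, 16, 15 and 9 UMIs over the 416 cells, with at most 3 in a cell, and Kcnj8 and Foxj1 were at 0. Mature oligodendrocyte genes had the largest sum, 848 UMIs, with a median of 1 and a maximum of 171 UMIs in a cell. They were at 206 CPM, against 246 and 744 CPM. Of the oligodendrocyte progenitor markers, Sox10 had 17 UMIs over the 416 cells, while Vcan, a matrix proteoglycan, made up 661 of the 773 UMIs. That list was at 188 CPM, against 98.3 in cycling cells with little Dcx (ratio 1.91, 1.58 to 2.33). In non-cycling Dcx cells it was at 380 CPM (0.495, 0.455 to 0.537). It had 5 or more UMIs in 34 cycling Dcx cells, against 23 for the mature oligodendrocyte list. In all, 29 cycling Dcx cells (6.97%) had 5 or more UMIs of the first 6 lists, against 17 and 113 cells of the other groups, and without these cells none of the ratios of the stem, cell cycle, neuronal, migration, microtubule and chromatin lists moved by more than 1.5 times.

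No cell of the lung library met the selection. Of 5915 lung cells 0 did, which allows a share of up to 0.0507% when 3 cells are taken as the limit behind a count of 0. Cycling cells were present there, with 254 within the same limits at 0 or 1 Dcx UMI.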

How the data were processed

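The deposited tables hold UMI counts per gene and cell barcode, 1 table per tissue, with no normalization by the authors. Per the labels and the study's methods, the authors extracted barcodes with UMI-tools (1.0.0 in the submitters' processing notes), aligned reads to mm10 with STAR 2.7.1a and assigned them to genes with featureCounts 1.6.4. The annotation and strand setting are not given in the sources used here. Counts at the 3' end are sparse in single cells.

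The limits on genes and mitochondrial share were 200 and 40%, with no upper limit. The UMI counts of a group of cells were summed per gene and divided by all its UMIs (CPM). The groups held 4107743, 1271445 and 5958643 UMIs in the order cycling Dcx cells, cycling cells with little Dcx and non-cycling Dcx cells. Ratios carry an exact conditional binomial 95% interval, CPM an exact Poisson interval and shares a Clopper-Pearson interval, save that a lone share of 0 carries the limit of 3 counts. A ratio against 0 UMIs used a floor of 3 UMIs over the group. There was no p-value, since each tissue was 1 library. The calls were tested on simulated data with 100 genes at 4-fold higher and 100 at 4-fold lower. Each summed count was drawn from a Poisson distribution without variation between cells, so calls that rest on 1 cell were not simulated. For cycling cells with little Dcx, 100 and 69 were called, with 39 calls among unchanged genes (8719 tested), and for non-cycling Dcx cells 100 and 92, with 15 such calls (10359 tested). Scrublet (scanpy 1.11.5, expected rate 0.06) called 61 of 4569 cells, which were kept and removed as an alternative. Other work used Python 3.11.15, scipy 1.17.1 and matplotlib 3.10.9.

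The members, gene lists and tests were chosen with earlier results of these data known. The text names the genes of the selection, members of 22 lists and, per direction and comparison, called genes among the 15 whose nearer interval bound lay farthest from 1, leaving out the 8 genes of the selection and mitochondrial genes, Gm genes and Rik genes. Of 315 list symbols, 5 were not analysed here because they had no counts under that symbol. No symbol beginning with U had counts. Some genes of the lists are not reported here. Gene positions are from GENCODE M21 (GRCm38). The alternatives were another limit on genes, mitochondrial share, Dcx, cycle genes or astroglial genes, removal of Scrublet calls or of cells with other-type markers, thinned cells, a depth window, equal weight of cells and other count minimums.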

Additional observations from a re-analysis of the deposited data

Results flagged for a closer look

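Dcx was also seen in the lung library, which the comparisons above do not use. There, 9 of 5915 cells (0.152%, 0.0696 to 0.289%) had 2 or more Dcx UMIs, with 2 or 3 UMIs each, out of 48 Dcx UMIs in 38 lung cells. No background share of Dcx was measured in that library, so these counts are not read as expression. These 9 cells held 2 Mki67 and Top2a UMIs and no UMI of the Dlx genes, Tubb3, Stmn2 or Sox10, and none of their barcodes was in the brain library.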

How the results depend on the processing

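Of 62 recomputed counts, 48 stayed within 1.5 times the reported value. Applying the selection to cells thinned to 2000 UMIs left 114 cycling Dcx cells beside 406 cycling cells with little Dcx. It gave 41 genes higher and 105 lower than in cycling cells with little Dcx, and 330 higher and 365 lower than in non-cycling Dcx cells. A minimum of 200 UMIs gave 113, 46, 520 and 376 in the same order. No minimum gave 750 lower than in cycling cells with little Dcx and 1464 lower than in non-cycling Dcx cells. Without the astroglial limit 418 genes, and with each cell weighted equally 328, were lower than in cycling cells with little Dcx. Cells of 4000 to 12000 UMIs gave 533 lower than in non-cycling Dcx cells.

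For 303 recomputed list ratios the new value lay within the counting interval of the reported ratio, and 170 lay outside it. A further 9 crossed 1 although the reported interval did not hold 1. On thinned cells these were the cyclin list (0.993) and mural markers (1.34) over cycling cells with little Dcx, and ependymal markers over non-cycling Dcx cells (1.02). Over cycling cells with little Dcx, ependymal markers were at 2.18 under 4000 genes and at 1.20 without cells with other-type markers, and mature oligodendrocyte markers at 1.02 without those cells and at 1.13 without Scrublet calls. Over non-cycling Dcx cells, microglia markers were at 1.15 without cells with other-type markers and blood markers at 1.36 at 4000 to 12000 UMIs. The cause was not tested. The early neuroblast ratio over cycling cells with little Dcx ranged from 1.36 to 1.84, the activated stem ratio from 0.494 to 0.689 and the Dlx and GABA ratio from 1.47 to 2.24. Removing cells with 2 or more Eomes UMIs was added after seeing the data. No paired analysis was possible because each tissue was 1 library.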
